A study of Homo sapiens with 4 samples.

Results

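The nuclear pore complex genes comprised 33 listed genes, 29 for pore components and 4 for soluble transport factors, taken by symbol from the arrays' platform annotation. Of these, 31 had at least 1 row carrying only their own symbol and were measured, of 18377 genes in all. NUP62 and POM121 had only rows shared with other symbols and are not analysed here. RNA came from the HuCCT1 line, derived from a human cholangiocarcinoma (a cancer of the bile ducts), in 4 states: GEM and VPA together (the combination), VPA alone, GEM alone, and untreated. VPA and GEM are the labels' abbreviations, read here with their usual meanings of valproic acid, a histone deacetylase inhibitor, and gemcitabine, a nucleoside analogue that blocks DNA synthesis. Each state had 1 Affymetrix Human Gene 1.0 ST array, so no value below has an error and no single comparison has a test. The sources used here give neither doses nor exposure times, and all states share 1 cell line. Values are log2 intensities as deposited, and a difference of 1.00 on that scale is 2-fold.

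Nuclear pores are large protein channels through the nuclear envelope. Stacked rings of scaffold nucleoporins hold a membrane anchor on the outside and, in the channel, flexible nucleoporins rich in phenylalanine-glycine (FG) repeats that bar large molecules and bind transport receptors. Importins carry cargo in, exportins carry it out, and the small GTPase Ran, bound to GTP in the nucleus and to GDP in the cytoplasm, sets the direction. Dividing cells take the pores apart in mitosis, rebuild them on the new nuclei and insert more during interphase.

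The 4 arrays fell into close pairs. The combination and untreated arrays correlated at 0.9962 over 28869 rows and the VPA and GEM arrays at 0.9955, against 0.9838 to 0.9868 for the other pairs. All directions below follow the labels as given, and whether an array stands for its labelled state or line was not tested. The markers below describe cell type and do not identify the line. Of the 7 measured biliary epithelial markers, all lay above the array median on every array (8.93 to 14.13). Of the 4 measured markers of each other cell type, 3 leukocyte, 3 fibroblast and 3 hepatocyte genes lay below the median on every array. COL1A1, of the fibroblast list (8.76 to 9.15), and APOA1, of the hepatocyte list (8.35 to 8.42), lay above the median on every array. PTPRC, which marks leukocytes, lay at 5.21 to 5.34, ALB, which marks hepatocytes, at 5.55 to 5.72, and LUM, a fibroblast gene, at 4.93 to 5.01, all below the lower quartile of rows. LYZ, of the leukocyte list, lay at 6.69 with the combination, 7.86 with VPA, 8.40 with GEM and 7.41 in untreated cells, and its part in the results was not tested.

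Transcripts of the pore genes were lower on both single-drug arrays than on either other array in 30 of the 31 genes, the exception being NUP214. The same order held for 48.3% of the 5434 genes whose mean level reached that of the lowest member (9.76), and for 30.6% of all genes. The median member lay at 11.32 with the combination, 10.50 with VPA, 10.64 with GEM and 11.41 in untreated cells. For VPA over untreated, the median log2 ratio was -0.63 for the members, -0.11 for genes at or above that mean level and -0.01 for all genes. For GEM over untreated, the medians were -0.65, -0.10 and -0.01 in the same order. For the combination over untreated, they were -0.04, -0.02 and -0.03. Genes at or above that mean level had a median level of 10.84 in untreated cells, below that of the members. The part of level in these gaps was not tested. In RNA from whole cultures, fewer cells transcribing a gene and less transcript in each cell cannot be told apart.

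**Figure D1:**
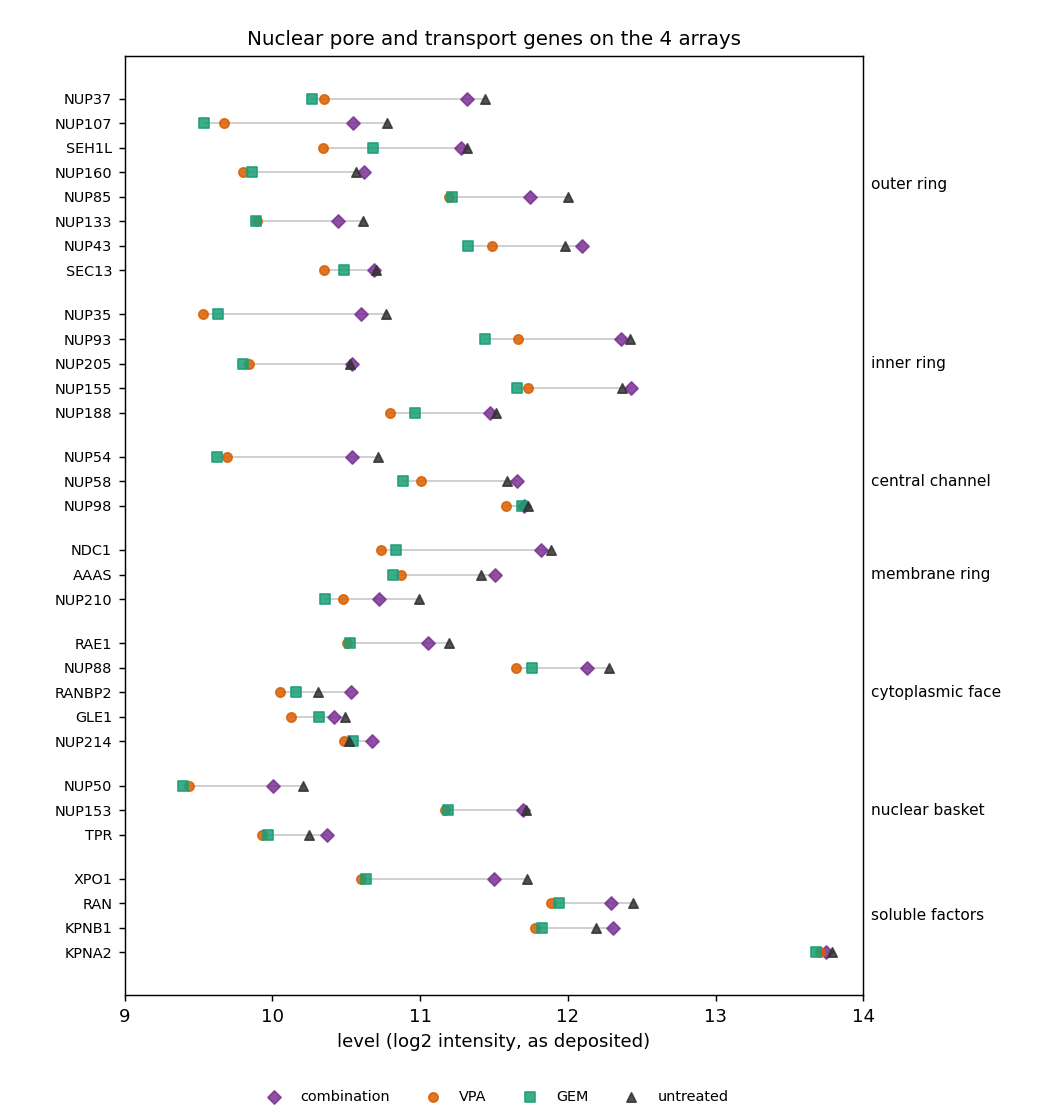
Deposited log2 level (horizontal axis) of each measured gene on the 4 arrays, grouped by place in the pore, with a grey line from its lowest to its highest array. In 30 of 31 genes the VPA and GEM points lie left of the combination and untreated points; NUP214 is the exception, and KPNA2 and NUP98 hardly move.

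With VPA alone, 6 of 31 members were at least 2-fold lower than in untreated cells and 0 were higher, where 2.09% of 11611 genes at level were lower and 1.90% higher by as much. The 6 were NUP107, NUP37, NUP35, NUP54, NDC1 and XPO1. A gene counted as at level when its higher value reached that array's median. At a 1.5-fold limit, 17 of 31 members were lower, against 10.4% of genes at level and 12.8% of genes at or above the members' lowest mean level. With GEM alone, the count at 2-fold was again 6 lower and 0 higher (background 3.01% and 1.48% of 11593), and at 1.5-fold 19 were lower (background 11.1%, or 12.1% at or above the members' lowest mean level). The 6 were again those genes, with the untreated array common to the VPA and GEM comparisons. With the combination, 0 of 31 members passed 2-fold or 1.5-fold in either direction over untreated (background 0.0261% lower and 0.122% higher at 2-fold, 0.366% and 1.24% at 1.5-fold). The 31 ratios of the combination over untreated ran from -0.27 in NUP210 to 0.22 in RANBP2.

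Set against each drug alone, the combination array had higher pore transcripts. Over GEM, NUP107 and NUP37 were at least 2-fold higher (2 of 31, background 3.60% of 11638), and 15 of 31 were at least 1.5-fold higher (background 11.9%). Over VPA, NUP35 and NDC1 were at least 2-fold higher (2 of 31, background 1.48% of 11600), and 15 of 31 were at least 1.5-fold higher (background 9.17%). Each of these 2-fold counts is 6.45% of the members. Medians were 0.55 over GEM and 0.57 over VPA, where genes at or above the members' lowest mean level had medians of 0.09 and 0.10, and all genes -0.02 and -0.01. All 31 members lay above 0 in both comparisons, which share the combination array. Of genes at or above the members' lowest mean level, 60.4% lay above 0 over GEM and 61.7% over VPA. Of all genes, 47.2% and 48.2% did. Several of these calls were near the limit. After quantile normalization of the columns again, NUP37 and NUP54 came short of 2-fold for VPA over untreated (-0.97 and -0.93), as did NUP54, NDC1 and XPO1 for GEM over untreated (-0.99, -0.95 and -0.98) and NUP107 and NUP37 for the combination over GEM (0.94 and 0.97).

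**Figure D2:**
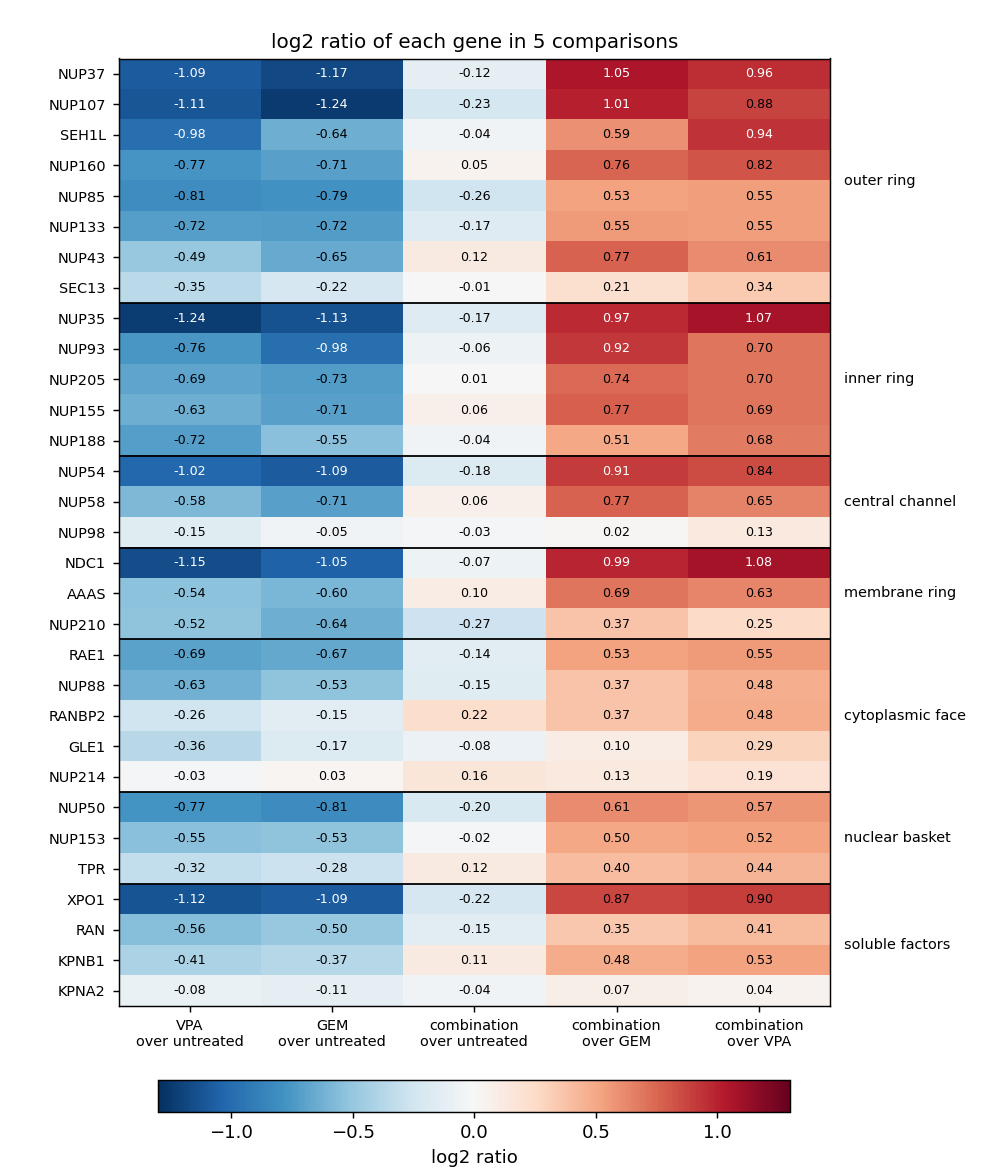
Log2 ratio (colour and printed value) of each measured gene in the 5 comparisons, grouped by place in the pore and ordered within a group by departure from additivity. Both single-drug columns are blue nearly throughout, the combination over untreated lies between -0.27 and 0.22, and both right-hand columns are red.

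The outer ring is built of Y-shaped scaffold complexes on the nuclear and cytoplasmic faces. Over untreated, its 8 genes had a median log2 ratio of -0.79 with VPA and -0.72 with GEM. At least 1.5-fold lower were 6 of the 8 with VPA and 7 with GEM, against 10.4% and 11.1% of genes at level. NUP107 had levels of 10.55 on the combination array, 9.67 with VPA, 9.53 with GEM and 10.78 in untreated cells. NUP37 had levels of 11.32 on the combination array, 10.35 with VPA, 10.27 with GEM and 11.44 in untreated cells. For both genes the single-drug arrays were about 1 log2 unit below the others: NUP107, a stem subunit, was 2.15-fold lower with VPA and 2.37-fold lower with GEM than in untreated cells, and NUP37, at an arm of the Y, 2.12-fold and 2.25-fold lower. SEH1L, a short-arm subunit that also serves in the GATOR2 nutrient-sensing complex, was lower with VPA (-0.98) than with GEM (-0.64) relative to untreated. SEC13 had levels of 10.69 on the combination array, 10.35 with VPA, 10.48 with GEM and 10.70 in untreated cells. SEC13, which also coats COPII vesicles leaving the endoplasmic reticulum, thus varied least in the ring, by 0.35 over the 4 arrays. The stem and arm subunits NUP133, NUP160, NUP85 and NUP43 had ratios between -0.81 and -0.49 for VPA and between -0.79 and -0.65 for GEM over untreated. On the combination array NUP160 and NUP43 lay slightly above untreated (0.05 and 0.12), and NUP133 and NUP85 below it (-0.17 and -0.26).

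The inner ring spans the midplane and joins the membrane to the channel. The median log2 ratio of its 5 genes over untreated was -0.72 with VPA and -0.73 with GEM. All 5 were at least 1.5-fold lower with VPA and 4 of 5 with GEM (background 10.4% and 11.1%). NUP35 had levels of 10.60 on the combination array, 9.53 with VPA, 9.63 with GEM and 10.77 in untreated cells. NUP35, which binds the pore membrane, was 2.36-fold lower with VPA and 2.19-fold lower with GEM than in untreated cells, and the combination was above GEM by 0.97 and above VPA by 1.07. NUP188 had levels of 11.47 on the combination array, 10.80 with VPA, 10.97 with GEM and 11.52 in untreated cells. NUP188, a large scaffold protein, varied least in this ring, by 0.72 over the arrays. NUP205, the related large scaffold protein, NUP155, which contacts the membrane, and NUP93, which links the ring to the channel nucleoporins, had ratios of -0.69, -0.63 and -0.76 for VPA and -0.73, -0.71 and -0.98 for GEM over untreated.

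In the central channel, NUP54 and NUP58 form a trimer with NUP62 whose FG repeats fill the passage. NUP54 had levels of 10.54 on the combination array, 9.69 with VPA, 9.63 with GEM and 10.71 in untreated cells. NUP54 was 2.03-fold lower with VPA and 2.12-fold lower with GEM than in untreated cells. NUP58 had ratios of -0.58 and -0.71 and lay at 0.06 for the combination over untreated. NUP98 had levels of 11.70 on the combination array, 11.58 with VPA, 11.69 with GEM and 11.73 in untreated cells. The NUP98 gene encodes a mobile FG nucleoporin and, from the same precursor, the outer ring subunit NUP96; its arrays differed by 0.15 at most, while the other outer ring genes differed by 0.35 to 1.24.

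The membrane ring anchors the pore in the envelope. NDC1 had levels of 11.82 on the combination array, 10.74 with VPA, 10.83 with GEM and 11.89 in untreated cells. NDC1, which spans the membrane, was 2.22-fold lower with VPA and 2.07-fold lower with GEM than in untreated cells. NUP210 had levels of 10.72 on the combination array, 10.47 with VPA, 10.35 with GEM and 10.99 in untreated cells. NUP210, a membrane-spanning glycoprotein, was the member lowest with the combination relative to untreated, and varied least in this group. AAAS encodes ALADIN, held at the pore by NDC1, and had ratios of -0.54 with VPA, -0.60 with GEM and 0.10 with the combination over untreated.

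The cytoplasmic face had the smallest differences of the place groups, the median over untreated being -0.36 with VPA and -0.17 with GEM, and 0 of 5 genes passed 2-fold. NUP214 had levels of 10.67 on the combination array, 10.49 with VPA, 10.54 with GEM and 10.52 in untreated cells. NUP214, an FG nucleoporin that docks export complexes, differed by 0.19 over the arrays, with no separation between single-drug and other arrays. RAE1 had levels of 11.05 on the combination array, 10.50 with VPA, 10.53 with GEM and 11.19 in untreated cells. RAE1, an mRNA export factor that binds NUP98, varied most of the 5, with the single-drug arrays 0.53 to 0.69 below the others. NUP88, the scaffold partner of NUP214, had ratios of -0.63 and -0.53, and GLE1, which activates the helicase that strips export factors from mRNA, -0.36 and -0.17 for VPA and GEM over untreated. RANBP2, the large Ran-binding SUMO ligase of the filaments, was at -0.26 and -0.15 and highest of all members for the combination over untreated (0.22). The annotation ties 8 further rows to RANBP2 and its near-identical RGPD copies together; these rows were not used, and the value of RANBP2 is uncertain where probes could bind the copies.

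The nuclear basket reaches into the nucleus and takes part in mRNA export and chromatin contacts. NUP50 had levels of 10.01 on the combination array, 9.43 with VPA, 9.39 with GEM and 10.21 in untreated cells. NUP50, which helps release importin cargo, was at -0.77 with VPA and -0.81 with GEM over untreated. TPR had levels of 10.37 on the combination array, 9.93 with VPA, 9.97 with GEM and 10.25 in untreated cells. TPR, the coiled-coil strut of the basket, varied least here, and NUP153, its FG anchor, lay between them at -0.55 and -0.53.

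Among the soluble factors, exportin and importin alpha lay at opposite ends. XPO1 had levels of 11.50 on the combination array, 10.60 with VPA, 10.64 with GEM and 11.72 in untreated cells. XPO1, the main exportin for proteins with a leucine-rich export signal, was 2.17-fold lower with VPA and 2.12-fold lower with GEM than in untreated cells. KPNA2 had levels of 13.75 on the combination array, 13.71 with VPA, 13.68 with GEM and 13.79 in untreated cells. KPNA2, an importin alpha that links cargo to importin beta, differed by 0.11 over the arrays, and its 2 rows gave -0.08 and -0.09 for VPA and -0.11 and -0.12 for GEM over untreated. Its mean level stood at percentile 99.86 of all genes, and the part of signal saturation in its small differences was not tested. Importin beta, KPNB1, had ratios over untreated of -0.41 with VPA and -0.37 with GEM. RAN had ratios of -0.56 and -0.50. The 2 rows of RAN gave -0.62 and -0.49 for VPA over untreated.

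The single-drug arrays were close to each other. VPA minus GEM had a median of -0.02 over the 31 members and ran from -0.34 in SEH1L to 0.22 in NUP93. Over the 11808 genes at level on at least 1 array, the robust SD of that difference was 0.172, and that of the combination minus untreated 0.158.

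The 2-by-2 layout allows each drug to be read without and with the other from pairs that share no array. VPA over untreated was below 0 and VPA added to GEM (the combination over GEM) above 0 in 31 of 31 members, where 50.1% of genes at or above their lowest mean level had that pair of signs. GEM over untreated was below 0 and GEM added to VPA (the combination over VPA) above 0 in 30 of 31, with NUP214 the exception, against 55.0%. These counts use sign alone and include values near 0, such as 0.02 in NUP98 for the combination over GEM. The departure from additivity, the combination minus VPA minus GEM plus untreated, had a median of 1.26 over members, 0.21 over genes at or above their lowest mean level and -0.01 over all genes. It was largest in NUP35 (2.20), NDC1 (2.14), NUP37 (2.13) and NUP107 (2.12) and smallest in KPNA2 (0.15), NUP214 (0.16) and NUP98 (0.17). By place, medians were 1.43 in the outer ring, 1.42 in the inner ring, 1.35 in the central channel, 1.23 in the membrane ring, 1.05 in the basket, 0.90 for the soluble factors and 0.63 at the cytoplasmic face. These groups hold 3 to 8 genes with wide ranges, and differences between them were not tested. The departure has no residual to test it against. In limma's additive model, which averages each drug over both pairs and has 1 residual degree of freedom, 0 of 31 members passed an adjusted p of 0.05 for VPA (lowest adjusted p 1.00, background 0% of 11808 genes) and 0 for GEM (lowest adjusted p 1.00, background 0%). At an unadjusted p under 0.05 limma gave 0 members in either case, with 22 genes in all for VPA and 0 for GEM. The departure itself sits in that residual, and the average effects of the members lay between -0.20 and 0.17.

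**Figure D3:**
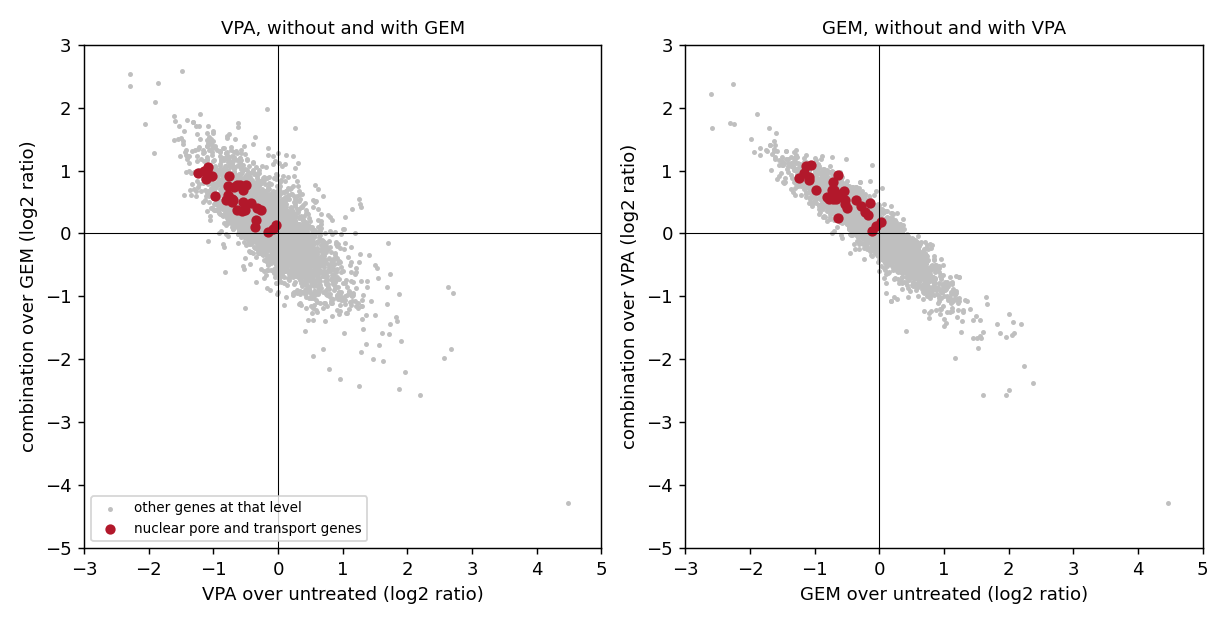
Log2 ratio of each drug without the other (horizontal axis) and added to the other (vertical axis), for VPA on the left and GEM on the right; the axes of a panel share no array. Nuclear pore and transport genes are red, other genes with a mean level of at least 9.76 grey; the red points, other than NUP214 in the GEM panel, lie at the upper left, as do 50.1% and 55.0% of all genes at that level.

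**Figure D4:**
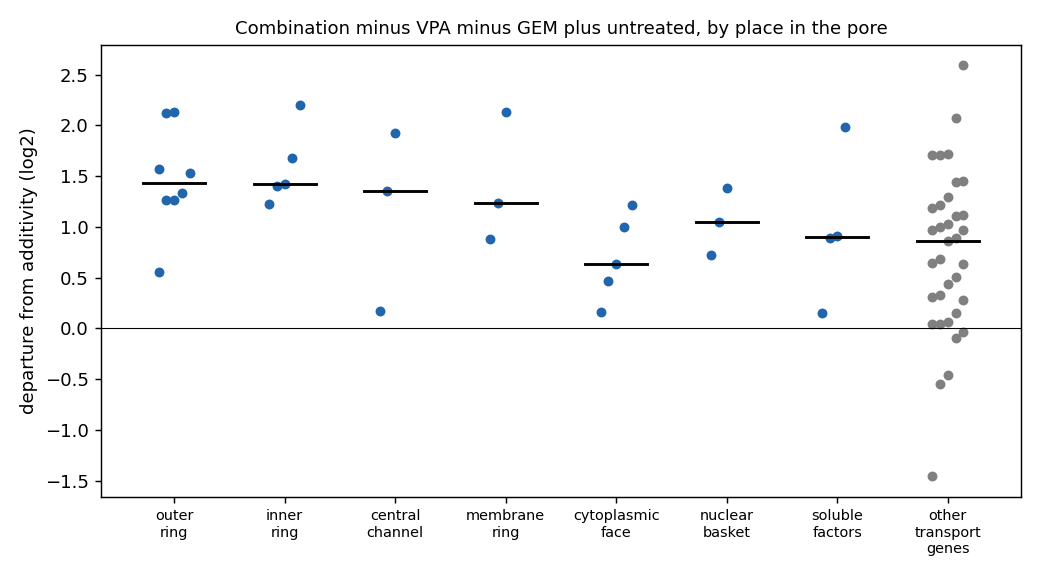
Departure from additivity (log2) of each measured gene by place in the pore, with bars at the medians, beside 35 other nuclear transport genes in grey. All 31 members lie above 0, as do 61.7% of genes at or above their lowest mean level and 49.1% of all genes. Medians of the place groups run from 0.63 at the cytoplasmic face to 1.43 in the outer ring. The other transport genes have a median of 0.86 with 5 genes below 0.

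Of 40 other nuclear transport genes, 35 were measured, and 25 of them had the members' order of arrays. Their median log2 ratio was -0.40 for VPA, -0.39 for GEM and -0.05 for the combination over untreated. In the same order, 3, 2 and 0 genes were at least 2-fold lower (background 2.09%, 3.01% and 0.0261%). In each, 0 were higher by as much (background 1.90%, 1.48% and 0.122%). RANBP1, which helps end the GTP-bound state of Ran in the cytoplasm, had levels of 11.70 with the combination, 10.61 with VPA, 10.51 with GEM and 12.03 in untreated cells. Its ratios over untreated, -1.41 with VPA and -1.51 with GEM, were larger in size than those of any measured member. SENP1, a SUMO protease, was at -1.08 and -1.09, and XPO4, an exportin, at -1.01 and -0.75. NXT2, related to the partner of the mRNA export receptor, passed 2-fold for the combination over GEM (1.08). RANBP1 passed it for the combination over GEM (1.18) and over VPA (1.08). IPO13, an importin that also exports cargo and named here after its values were seen, went the other way, at 0.85 with VPA and 0.78 with GEM over untreated. KPNA6 (0.18 and 0.40) and KPNA7 (0.26 and 0.20), also named after their values were seen, were above 0 with each drug alone over untreated. KPNA7 lay below the median on every array (7.17 to 7.43).

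Promoter sequences are shown for the 3 members with the largest and the 3 with the smallest departure from additivity, so that both ends of the range can be compared. They are the 250 bases before the first RefSeq start listed for each gene (GRCh38.p14), 5′ to 3′ on the gene's strand. Capitals mark letters of an E2F-type site (TTNGCGC), a cell cycle homology region or CHR (TTTGAA or TTCGAA) or a CCAAT box, on either strand; the core of an NRF1 site (TGCGCA) was searched too and is in none of the 6, and no marked motifs overlap. The windows are chr2:183124193-183124442 (plus strand), chr1:53838297-53838546 (minus strand), chr12:102120115-102120364 (minus strand), chr17:68035485-68035734 (plus strand), chr9:131125336-131125585 (plus strand) and chr11:3797547-3797796 (minus strand).
NUP35: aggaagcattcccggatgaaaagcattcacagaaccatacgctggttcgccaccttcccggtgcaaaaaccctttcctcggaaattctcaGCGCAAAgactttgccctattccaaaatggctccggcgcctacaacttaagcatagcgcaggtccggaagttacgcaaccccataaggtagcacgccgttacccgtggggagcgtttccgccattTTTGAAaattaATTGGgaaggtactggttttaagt
NDC1: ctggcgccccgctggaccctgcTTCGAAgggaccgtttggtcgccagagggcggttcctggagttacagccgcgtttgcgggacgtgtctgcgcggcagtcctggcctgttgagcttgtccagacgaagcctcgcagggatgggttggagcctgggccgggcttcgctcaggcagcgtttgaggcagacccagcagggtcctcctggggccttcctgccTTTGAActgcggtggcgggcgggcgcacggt
NUP37: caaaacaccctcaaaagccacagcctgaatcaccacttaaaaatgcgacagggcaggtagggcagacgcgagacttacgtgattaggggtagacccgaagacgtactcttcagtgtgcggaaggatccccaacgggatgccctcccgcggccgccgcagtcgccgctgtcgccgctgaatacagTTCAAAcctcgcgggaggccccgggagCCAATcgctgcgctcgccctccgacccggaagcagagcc
KPNA2: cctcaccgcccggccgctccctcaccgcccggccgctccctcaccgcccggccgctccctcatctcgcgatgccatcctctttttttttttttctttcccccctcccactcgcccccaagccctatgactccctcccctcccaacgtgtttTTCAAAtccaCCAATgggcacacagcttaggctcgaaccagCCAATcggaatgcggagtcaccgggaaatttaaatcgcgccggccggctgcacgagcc
NUP214: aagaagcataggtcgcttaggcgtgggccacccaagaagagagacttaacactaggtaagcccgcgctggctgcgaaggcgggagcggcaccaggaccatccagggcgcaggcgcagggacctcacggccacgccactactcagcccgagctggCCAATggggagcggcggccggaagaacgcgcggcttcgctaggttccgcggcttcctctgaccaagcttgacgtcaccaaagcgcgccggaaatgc
NUP98: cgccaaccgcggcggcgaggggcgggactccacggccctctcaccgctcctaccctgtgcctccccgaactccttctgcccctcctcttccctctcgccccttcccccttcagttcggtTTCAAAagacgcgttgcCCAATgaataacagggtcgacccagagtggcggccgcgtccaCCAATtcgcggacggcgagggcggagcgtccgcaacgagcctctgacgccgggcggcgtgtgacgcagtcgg
CHR letters stood in all 3 promoters of the largest departures and in 2 of the 3 smallest, so they do not part the ends of the range, and CCAAT letters stood in 2 and 3. E2F-type letters stood in NUP35 alone of the 6. NUP107, next in departure (2.12), held E2F-type and CCAAT letters and no CHR letters. Over the 30 members with a listed promoter (GLE1, KPNB1 and NUP43 have no entry), 8 held E2F-type letters (26.7%, against 6.73% of 27305 promoters, 8.88% of 15842 protein-coding ones and 11.8% of 4542 promoters of genes at or above the members' lowest mean level). These were AAAS, NUP107, NUP35, NUP50, NUP54, NUP85, POM121 and RAE1. CHR letters were in 7 of 30 (23.3%, against 14.6%, 11.9% and 9.71%), CCAAT in 11 (36.7%, against 33.04%, 34.5% and 35.6%) and the NRF1 core in 2 (6.67%, against 7.05%, 9.10% and 13.3%). The median departure was 1.39 over 7 measured members with E2F-type letters and 1.22 over 21 without, and 1.42 and 1.27 for CHR. For CCAAT it was 1.42 over 11 with and 1.27 over 17 without, and for the NRF1 core 0.72 in the 1 measured gene with it, TPR, and 1.33 over 27 without. A match to letters is a description of the sequence and not a bound site.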

How the data were processed

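Each of the 4 arrays gave 28869 rows of log2 intensities, deposited after normalization by the authors. Per the labels, the software was GeneSpring GX 11.5, and the submitters' processing notes name RMA. RMA generally evens out intensity distributions, but the deposited columns still differed: medians were 7.87 with the combination, 7.92 with VPA, 7.91 with GEM and 7.87 in untreated cells. Array number limits precision. Scanner files and the rows' genome build are not used here.

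The platform annotation gave 1 symbol to 19310 rows, several to 1752 and none to 7807. Genes took the mean of rows with 1 symbol (18377 genes, 99.84% of rows matched to RefSeq by Entrez ID). Counts used the authors' ratio limits (2.0 and 0.5) and a 1.5-fold limit, with the higher value at or above its array's median. The members and lists were chosen with earlier results of these data known. All members are described, with array levels for those past 2-fold and the most and least variable per group. Other transport genes are named where past 2-fold, and IPO13, KPNA6 and KPNA7 were named after their values were seen. The limma additive fit was also run on simulated data without any departure from additivity. That run cannot show how the fit behaves on these arrays, where the departure sits in the residual. Benjamini-Hochberg adjustment was over 11808 genes. Software was R 4.3.3, limma 3.58.1, Python 3.11.15, numpy 2.4.6, pandas 2.3.3 and matplotlib 3.10.9. Alternatives covered scaling, level filter, fold limit, choice of row, summary and limma model.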

Additional observations from a re-analysis of the deposited data

Results flagged for a closer look

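Several values had opposite signs without and with the other drug, in pairs of arrays that share none; the difference was not tested, since each pair holds 1 array per state. The member median for VPA was 0.55 added to GEM and -0.63 alone (difference 1.18), and for GEM 0.57 added to VPA and -0.65 alone (difference 1.22). In any single gene the VPA and GEM differences are equal, since both are its departure from additivity. They are therefore not separate results. Of single genes past 2-fold both ways, VPA gave 1.01 with GEM and -1.11 alone in NUP107 (difference 2.12) and 1.05 and -1.09 in NUP37 (difference 2.13). GEM gave 1.07 with VPA and -1.13 alone in NUP35 (difference 2.20) and 1.08 and -1.05 in NDC1 (difference 2.14). After quantile normalization of the columns again, NUP35 stayed past 2-fold both ways (1.01 and -1.04). NUP107, NUP37 and NDC1 did not, with 0.94 in NUP107 and 0.97 in NUP37 for the combination over GEM and -0.95 in NDC1 for GEM over untreated.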

How the results depend on the processing

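Member medians kept their sign in all 5 comparisons, and in the departure, under another quantile normalization, median centring, 1 row per gene, members at level only and the mean. With quantile normalization again, the VPA over untreated median was -0.52 and the departure 1.08; the cause was not tested. Counts at 2-fold depended more on scaling: quantile normalization again gave 3 members for GEM over untreated and 0 for the combination over GEM, and median centring gave 4 for the combination over GEM. With a 1.5-fold limit, a looser rule by construction, counts were 17 for VPA and 19 for GEM over untreated, and 15 for the combination over GEM and 15 over VPA. The limma counts stayed at 0 under all 6 alternatives for each drug. The departure sits in the residual of each of these fits, so an unchanged 0 adds no evidence. All 31 measured members were at level, so the level filter removed none. No paired analysis was possible because each state has 1 array. With 1 array per state, a fault of a single array cannot be told apart from its treatment.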
